A study of Mus musculus with 16 samples.

Results

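The genes examined were 8 that encode enzymes and partners acting on methylated, oxidized or missing DNA bases: Mgmt, Mpg, Ogg1, Apex1, Xrcc1, Parp1, Msh6 and Pms2. They were taken as all non-control probes bearing one of these gene names on a whole-genome mouse oligonucleotide array, where Apex1 appears under its older name Apex. This gave 14 of 41174 probes and 8 of 27703 gene names. All 8 genes were among the 21249 genes tested, and 13 of the 14 probes passed the filter on dim probes.

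Lung RNA of 16 A/J females was hybridised, with 1 mouse on each 2-colour array and 4 mice in each of 4 groups; A/J is an inbred mouse that readily develops lung tumours. Untreated mice ate the AIN-76 basal diet, which held 0.35 ppm selenium, and got neither agent. NNK mice ate the same diet and received 1 intraperitoneal injection of the tobacco nitrosamine NNK (10 uM in 0.2 mL saline), and their lungs were taken 13 days later. SECY mice received 15 ppm selenocystine, an organic form of selenium, in AIN-76 for 10 days, and NNK+SECY mice had the injection, 3 days on the basal diet and then 10 days of the selenocystine diet. Every mouse spent a week on AIN-76 beforehand. Each mouse's RNA carried the dye Cy5 and was set against a Cy3-labelled pool of RNA from the 4 untreated mice, so the untreated group shares RNA with the reference on all arrays. Dyes were not swapped, and the pool stayed in Cy3 throughout. The values below are log2 ratios of lung Cy5 to pool Cy3.

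NNK is activated in the lung to species that methylate and pyridyloxobutylate DNA. Among the lesions is O6-methylguanine, which pairs wrongly at replication, and N7-methylguanine, which is more frequent and tends to fall off the sugar. Mgmt takes the methyl group off O6-methylguanine in a single step that uses up the protein. Mpg cuts out N-methylated purines, Apex1 opens the backbone at the gap, Parp1 senses the nick and Xrcc1 holds the filling and sealing enzymes together. Ogg1 starts the same route at 8-oxoguanine, and the mismatch repair proteins Msh6 and Pms2 act on mispairs left after replication. RNA levels of these genes say nothing of how much active protein a cell holds.

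The promoters of Mgmt, the enzyme dedicated to O6-methylguanine, and of Ogg1, the member with the smallest p-values below, are shown so that the genes can be placed (RefSeq, GRCm38.p6, plus strand for both). Each stretch runs from 250 bases before a listed start of the gene to the first annotated transcript start. Capitals mark GC boxes, the letters GGGCGG or their reverse complement CCGCCC, which the factor Sp1 can bind.
Mgmt, chr7:136894336-136894462:
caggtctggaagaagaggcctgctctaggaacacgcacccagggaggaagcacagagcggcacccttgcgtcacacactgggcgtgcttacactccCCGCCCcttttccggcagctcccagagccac
Ogg1, chr6:113326726-113326971:
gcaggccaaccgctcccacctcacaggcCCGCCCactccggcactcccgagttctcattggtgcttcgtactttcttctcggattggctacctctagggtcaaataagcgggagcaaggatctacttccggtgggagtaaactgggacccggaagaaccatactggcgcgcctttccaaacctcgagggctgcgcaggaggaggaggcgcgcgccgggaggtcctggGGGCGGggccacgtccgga
In windows of 250 bases before a listed start, 7 of the 8 genes held a GC box on either strand, against 32.7% of 32851 RefSeq promoter windows of the same length. Xrcc1 held none. The same windows held 28 CpG dinucleotides in Apex1, 27 in Msh6, 20 in Ogg1, 16 in Parp1, 15 in Mgmt, 14 in Mpg, 14 in Pms2 and 5 in Xrcc1, beside a median of 6 over all windows. The antioxidant response element TGACNNNGC, searched on both strands, matched in Mgmt and Pms2, against 10.2% of all windows. The Mgmt window runs past the first annotated transcript start. The 127 bases printed above hold 1 of its 4 GC boxes, 6 of its 15 CpG and no antioxidant match. These matches describe the letters only, since no binding or methylation was measured here.

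None of the 8 repair genes differed between groups at an adjusted p of 0.05 in any of 8 comparisons (limma across all genes tested, Benjamini-Hochberg). For NNK against Untreated, 0.32% of all genes tested passed that threshold, and for SECY against Untreated 0.278% did. The share was 1.6% for NNK+SECY against Untreated, 1.75% for NNK+SECY against NNK and 0.00942% for NNK+SECY against SECY. It was 0.00471% for the interaction of the 2 treatments, 2.38% for the diet averaged over mice with and without NNK, and 0.283% for NNK averaged over both diets. At these shares a count of 0 among 8 genes is near what the rest of the array gave. At an unadjusted p of 0.05, Ogg1 passed and the other 7 members did not, in 4 comparisons: NNK against Untreated, where 5.04% of all genes did, NNK+SECY against Untreated (9.23%), NNK+SECY against SECY (6.14%) and NNK averaged over diet (6.81%). No member passed it for SECY against Untreated (8.11% of all genes), NNK+SECY against NNK (9.89%), the interaction (4.6%) or the averaged diet (12.3%).

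The confidence intervals give the precision of these differences. Over the 8 genes, the 95% confidence limits of the fold change ran from 0.879 to 1.20 for NNK against Untreated and from 0.867 to 1.22 for SECY against Untreated. They ran from 0.878 to 1.23 for NNK+SECY against Untreated, from 0.852 to 1.14 for NNK+SECY against NNK and from 0.819 to 1.23 for NNK+SECY against SECY. Averaging over 8 arrays an arm narrowed them to 0.879 to 1.17 for NNK and 0.904 to 1.14 for the diet. The interaction was the least precise, at 0.787 to 1.20. In the same libraries the diet-responsive detoxifying enzymes Nqo1 and Gstm1 were 1.41 ± 0.09 and 0.94 ± 0.06 (log2, SE) higher on selenocystine averaged over NNK, each with a limma adjusted p of 2.36e-07.

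**Figure D1:**
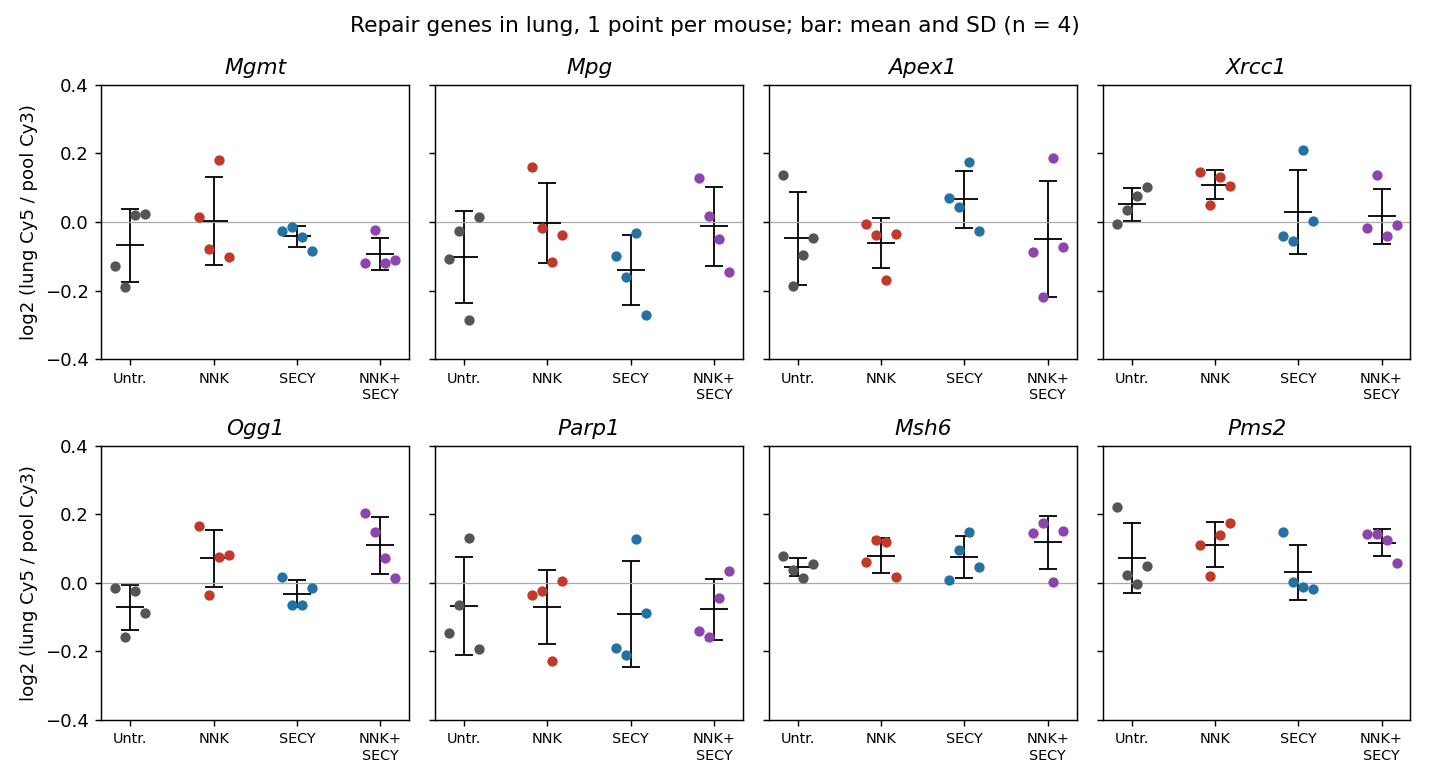
Log2 ratio of lung Cy5 to pool Cy3 for the 8 repair genes (y axis) in the 4 groups (x axis), with 1 point per mouse and the mean and SD of 4 mice as bars. All points lie between -0.29 and 0.22, and the groups compared overlap everywhere but for Ogg1 in NNK+SECY (0.01 to 0.20) against Untreated (-0.16 to -0.02).

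Mgmt, the methyltransferase that reverses O6-methylguanine, had log2 ratios of -0.13, -0.19, 0.02 and 0.02 in Untreated mice. The NNK mice gave 0.01, -0.08, 0.18 and -0.10, the SECY mice -0.03, -0.01, -0.04 and -0.09, and the NNK+SECY mice -0.12, -0.02, -0.12 and -0.11. NNK replicate 3 was the highest of all, and each group's range overlapped the others'. The difference of NNK from Untreated was 0.07 ± 0.06 (log2, SE, n = 4 a group, limma adjusted p = 1), with limits on the percent change of -4.24 and 15.3. Averaged over diet it was 0.01 ± 0.04, and the interaction, -0.12 ± 0.09, was the value farthest from 0 that Mgmt gave in the main fit. These sizes depended on the processing and on the probe. Under the alternative fits listed at the end, the interaction ran from -0.24, with the processed signals, to -0.03. The difference of NNK from Untreated ran from 0.01 to 0.14. The order of the group means was NNK at 0.00 (SD 0.13), SECY at -0.04 (SD 0.03), Untreated at -0.07 (SD 0.11) and NNK+SECY at -0.09 (SD 0.05), and no neighbours in it differed beyond their spread. The separate channels moved together: against the Untreated arrays, Mgmt on the SECY arrays was 0.37 higher in Cy5 and 0.35 higher in Cy3, the dye that held the same pool on every array. A second, dimmer Mgmt probe gave opposite signs. It was at -0.04 ± 0.06 for NNK against Untreated, -0.01 ± 0.04 averaged over diet and 0.05 ± 0.09 for the interaction. For NNK+SECY against NNK it was at 0.10 ± 0.06, where the main probe was at -0.10 ± 0.06.

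Mpg, the glycosylase that removes N-methylated purines, had ratios of -0.11, -0.03, -0.29 and 0.01 in Untreated and of 0.16, -0.02, -0.12 and -0.04 in NNK mice. It had -0.10, -0.16, -0.03 and -0.27 in SECY and 0.13, 0.02, -0.05 and -0.15 in NNK+SECY mice. Both NNK groups held mice above and below 0, and they overlapped the groups without NNK. The mean was higher with NNK on each diet, by 0.10 ± 0.08 on the basal diet and by 0.13 ± 0.08 on selenocystine. Averaged over diet the difference was 0.11 ± 0.06 (limma, unadjusted p = 0.0577, adjusted p = 0.756, n = 8 arrays an arm). The diet's own value was -0.02 ± 0.06.

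Ogg1, the glycosylase for 8-oxoguanine, was the member whose values followed a treatment most closely. Its ratios were -0.02, -0.16, -0.02 and -0.09 in Untreated and 0.17, -0.04, 0.07 and 0.08 in NNK mice. They were 0.02, -0.06, -0.07 and -0.02 in SECY and 0.20, 0.15, 0.07 and 0.01 in NNK+SECY mice. All NNK+SECY mice lay above all Untreated mice, a separation that 6.81% of all genes showed in that comparison. NNK replicate 2 and NNK+SECY replicate 4 lay within the range of the mice without NNK. In the other pairs no member was separated in this way, against 3.79% of all genes for NNK against Untreated, 3.96% for SECY against Untreated, 8.47% for NNK+SECY against NNK and 2.84% for NNK+SECY against SECY. NNK+SECY exceeded Untreated by 0.18 ± 0.05 (limma, unadjusted p = 0.00418, adjusted p = 0.157), NNK exceeded Untreated by 0.14 ± 0.05 (adjusted p = 0.772) and NNK+SECY exceeded SECY by 0.14 ± 0.05 (adjusted p = 0.79). Averaged over diet, the difference was 0.14 ± 0.04 with limits of 0.06 and 0.22 (unadjusted p = 0.00194, adjusted p = 0.229), a change of 4.29% to 16.8%. The diet's value was 0.04 ± 0.04, and the interaction of 0.00 ± 0.08 had 95% limits of -10.8% and 11.8%. In rank, the means were NNK+SECY at 0.11 (SD 0.08), NNK at 0.07 (SD 0.08), SECY at -0.03 (SD 0.04) and Untreated at -0.07 (SD 0.07), and no neighbours in this order were separated. Cy5 averaged 8.46 in Untreated, 8.67 in NNK, 8.53 in SECY and 8.68 in NNK+SECY mice (log2 intensity), while Cy3 averaged 8.54, 8.60, 8.56 and 8.57. Averaged over diet, Cy5 was thus 0.18 higher with NNK and Cy3 0.04 higher.

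A second Ogg1 probe, which shares 40 of its 60 target bases with the first, gave 0.08, 0.04, -0.02 and -0.01 in Untreated and 0.24, 0.14, 0.11 and 0.19 in NNK mice. It gave 0.10, 0.06, 0.04 and -0.04 in SECY and 0.18, 0.26, 0.14 and 0.12 in NNK+SECY mice. With this probe the 8 mice given NNK, from 0.11 upward, did not overlap the 8 others, which reached 0.10. Of all 30072 probes with a value on every array, 0.0432% were separated in this way, and the comparison was singled out after the Ogg1 values had been seen. The averaged NNK difference was 0.14 ± 0.03 (limma over probes, unadjusted p = 0.0007, adjusted p = 0.157), where 0.202% of all probes tested were called. Since the probes overlap in sequence and were read on the same arrays, they are not independent measurements.

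Array layout moved with these values. The slide numbers in the file headers place each Untreated mouse on 1 slide with the NNK mouse of its number, and each SECY mouse with the NNK+SECY mouse of its number. The NNK array of a slide lay above its partner on 8 of 8 slides with both Ogg1 probes, by 0.03 to 0.21 with the first and by 0.08 to 0.20 with the second. The counts of slides were 6 of 8 for Mpg, Parp1 and Xrcc1, 5 of 8 for Msh6 and Pms2, and 3 of 8 for Mgmt and Apex1. These counts rest on the same values as the NNK differences above, so they add no separate evidence. The share of all genes with such a count was not taken. All arrays of mice given NNK were scanned on 1 day and all others on another, so NNK and scan day cannot be told apart. The diet and the set of slides coincide in the same way and cannot be told apart either. Of 63 measured markers in 13 lists of cell types and states, 37 were above 0 for NNK averaged over diet, and the lists' medians ran from -0.06 for alveolar macrophages to 0.22 for erythroid cells. All members were above 0 in 4 lists, namely those of ciliated cells (5 of 5, median 0.21), B and plasma cells (5 of 5, 0.05), skeletal muscle (3 of 3, 0.19) and erythroid cells (2 of 2, 0.22), while 0 of 5 alveolar type 1 markers were. In this comparison 1 marker, the cycling gene Birc5, passed the limma threshold. Cd3e, a T cell receptor subunit, did so for NNK against Untreated (0.44 ± 0.08, limma adjusted p = 0.0195). There 3 of 5 T and NK markers were above 0 (median 0.02). The group means of Cy3, which held the same pool on every array, varied by 0.93 for Cd3e and by 1.31 for Birc5. The mean log2 ratio of the ciliated list ran from -0.11 to 0.13 in Untreated, 0.12 to 0.22 in NNK, -0.13 to 0.34 in SECY and 0.05 to 0.37 in NNK+SECY mice. The part of these cell types in the Ogg1 values was not tested. In whole lung, fewer cells of a type and less RNA per cell cannot be told apart.

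**Figure D2:**
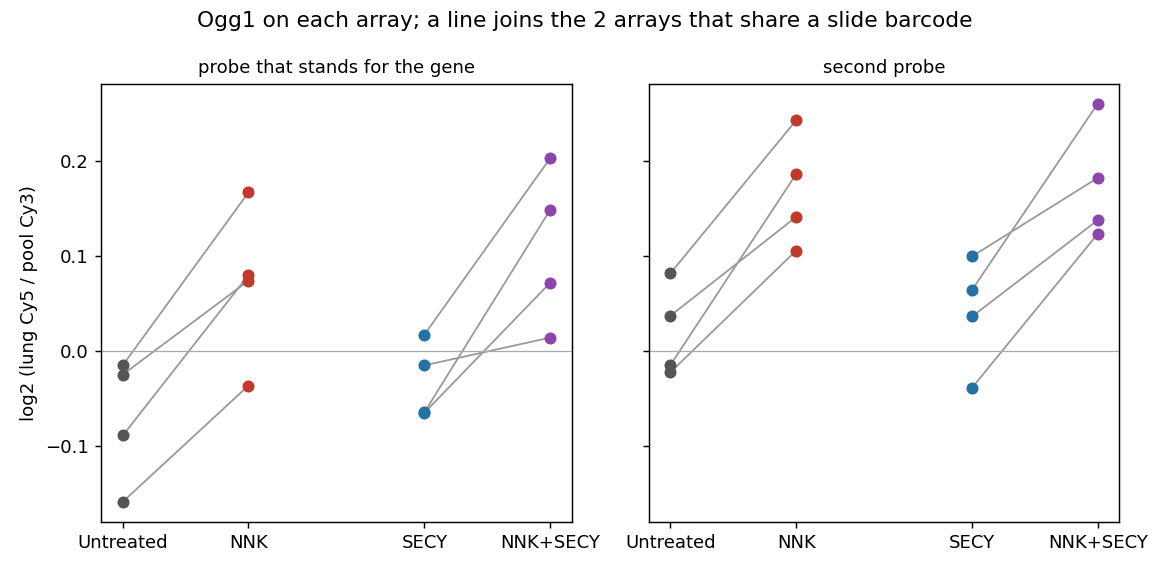
Log2 ratio of Ogg1 (y axis) on each of 16 arrays by group (x axis), for the probe that stands for the gene and for the second probe, with a line joining the 2 arrays of a slide. All 8 lines run upward from the array without NNK to the array with it in both panels, by 0.03 to 0.21 and by 0.08 to 0.20.

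Apex1, the endonuclease that nicks DNA at a missing base, had ratios of 0.14, -0.19, -0.10 and -0.05 in Untreated and -0.01, -0.04, -0.17 and -0.04 in NNK mice. It had 0.07, 0.04, 0.18 and -0.03 in SECY and -0.09, -0.22, 0.19 and -0.07 in NNK+SECY mice. Every group held values on both sides of 0 except NNK, where all 4 were below it, and all ranges overlapped. SECY against Untreated was 0.11 ± 0.08 (limma adjusted p = 0.813), NNK+SECY against SECY -0.11 ± 0.08 (adjusted p = 0.89), and the averaged NNK value -0.06 ± 0.06 was the only one of the 8 members below 0.

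Of the partners at the strand break, Xrcc1 ran from -0.06 to 0.21 over the 16 mice and Parp1 from -0.23 to 0.13. The mean of Xrcc1, the scaffold, was 0.05 (SD 0.05) in Untreated, 0.11 (SD 0.04) in NNK, 0.03 (SD 0.12) in SECY and 0.02 (SD 0.08) in NNK+SECY mice. Its difference of NNK+SECY from NNK was -0.09 ± 0.06 (limma adjusted p = 0.669). Parp1, the break sensor that modifies proteins with ADP-ribose chains, had the least variation between group means, from -0.09 in SECY to -0.07 in Untreated, and also the widest spread between mice of a group, with a pooled SD of 0.13. Its averaged NNK difference was 0.01 ± 0.06, with limits of -8.02% and 9.51%.

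The group means of both mismatch repair members lay slightly above the pool. Msh6, which takes part in finding single mispairs, averaged 0.05 (SD 0.03) in Untreated, 0.08 (SD 0.05) in NNK, 0.08 (SD 0.06) in SECY and 0.12 (SD 0.08) in NNK+SECY mice. Its largest difference, NNK+SECY against Untreated, was 0.07 ± 0.05 (limma adjusted p = 0.762). Msh6 had the smallest spread of the members, a pooled SD of 0.06 that only 6.54% of genes tested fell below, so its limits were also the narrowest: -2.32% to 7.96% for NNK averaged over diet. Pms2, which nicks the strand to be corrected, averaged 0.07 (SD 0.10), 0.11 (SD 0.07), 0.03 (SD 0.08) and 0.12 (SD 0.04) in Untreated, NNK, SECY and NNK+SECY mice. Its averaged NNK difference was 0.06 ± 0.04 (adjusted p = 0.881).

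Read as a list, the 8 members had a median difference of 0.03 for NNK averaged over diet, beside 0.01 over all genes tested, and 7 of 8 were above 0. Under the 25 alternative fits, Ogg1, Mpg and Pms2 stayed above 0 in 25, Msh6 and Xrcc1 in 24, Mgmt in 21 and Parp1 in 15. In Msh6 and Pms2 the lung channel was lower with NNK (Cy5 -0.09 and -0.08), and the pool channel was lower still (Cy3 -0.13 and -0.14). Their ratios above 0 thus do not reflect a higher lung signal. In the other members Cy5 was higher with NNK. The second Pms2 probe was at -0.02 ± 0.04 for averaged NNK. For NNK against Untreated the median was 0.05 with 6 of 8 above 0, beside 0.00 over all genes. For the diet averaged over NNK it was -0.02 with 3 of 8 above 0, also beside 0.00. The pooled SD within groups ran from 0.06 for Msh6 to 0.13 for Parp1, around the median of 0.09 over all genes tested, so the members were measured about as precisely as a typical gene.

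**Figure D3:**
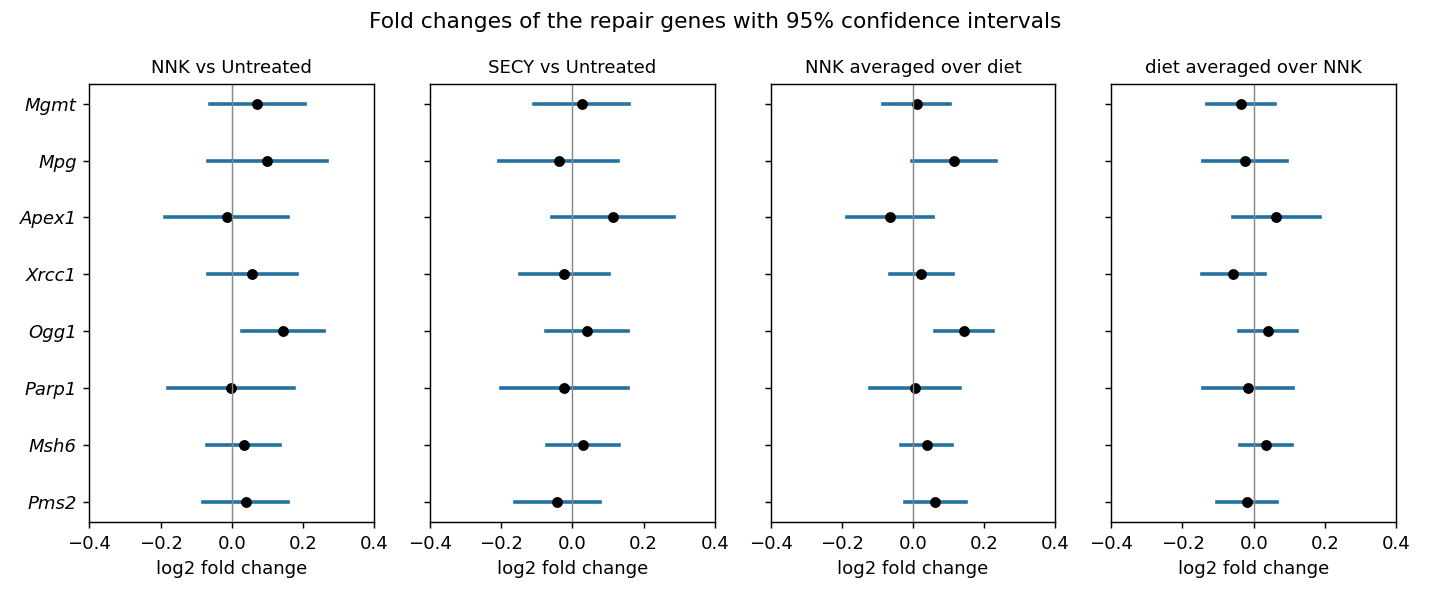
Log2 fold changes (x axis, points) of the 8 repair genes (rows) with 95% confidence intervals (lines) for NNK against Untreated, SECY against Untreated, NNK averaged over diet and the diet averaged over NNK. Among these 4 comparisons, the only intervals that leave out 0 are those of Ogg1 for NNK against Untreated (0.14) and NNK averaged over diet (0.06 to 0.22).

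Several members had more than 1 probe, and the probes did not always move together across the 16 arrays. The 2 Parp1 probes have targets that each span 299 bases of genome, 279 of them shared. How many of the bases read by the probes overlap was not determined. They correlated with Pearson's r = 0.83 (permutation p = 7e-05, adjusted over 6 probe pairs 0.00042) and Spearman's rho = 0.88 (p = 3e-05), and r was 0.84 without the 2 arrays farthest from the median. The 2 Ogg1 probes gave r = 0.79 (permutation p = 0.00045, adjusted 0.00135) and rho = 0.78 (p = 0.00069), with r = 0.73 without the 2 farthest arrays. The permutations ran over all 16 arrays without regard to group, so their p-values also reflect group differences that both probes share. Within groups, after each group's mean was taken off, r was 0.88 for Parp1, 0.45 for Ogg1, -0.65 for Pms2 and -0.18 for Mgmt. The 2 Pms2 probes, 17317 bases apart, ran against each other with r = -0.59 (permutation p = 0.0165, adjusted 0.033), rho = -0.58 (p = 0.0217) and r = -0.55 without the 2 farthest arrays. The 2 Mgmt probes, 1318 bases apart, gave r = -0.30 (permutation p = 0.268, adjusted 0.402), rho = -0.45 (p = 0.0802) and r = -0.37 without those arrays. In Mgmt and Pms2 the second probe was dim, with a mean Cy5 of 6.30 to 6.48 and of 6.23 to 6.35 over the groups, though above background on all arrays.

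**Figure D4:**
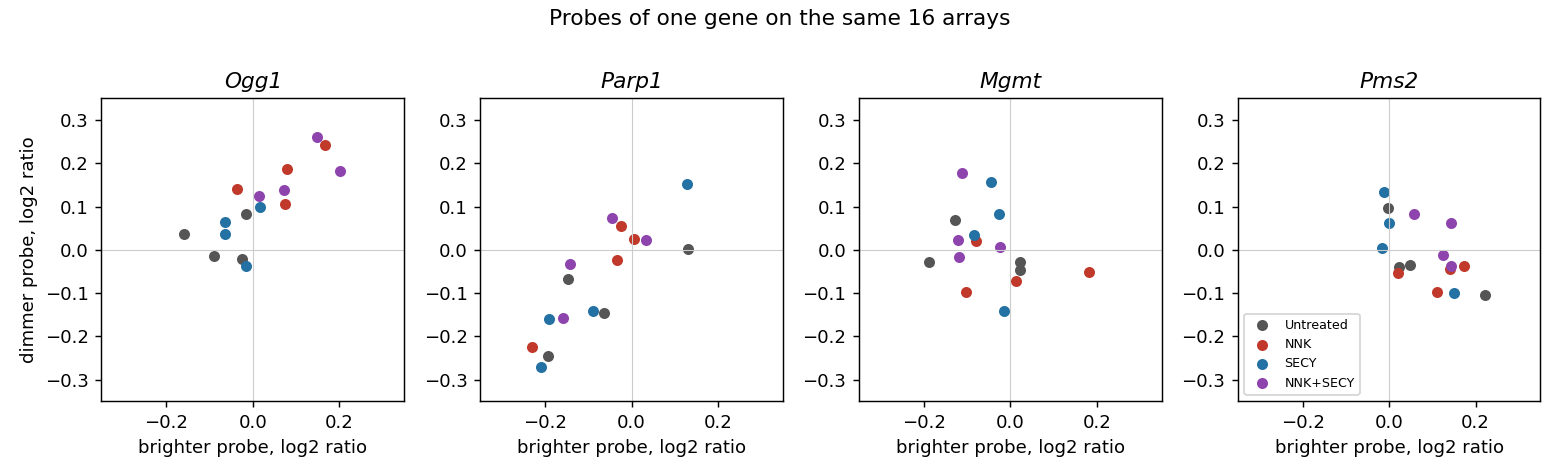
Log2 ratio of the dimmer probe (y axis) against that of the brighter probe (x axis) of the same gene on the 16 arrays, coloured by group. The points rise together for Ogg1 (r = 0.79) and Parp1 (r = 0.83), slope downward for Pms2 (r = -0.59) and show no clear slope for Mgmt (r = -0.30).

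Of the 3 probes named Xrcc1, 2 were designed from a clone that the files place on the opposite strand, 29930 and 30445 bases from the main probe. They were above background on 0 and 10 of 16 arrays and correlated with the main probe at r = -0.17 and -0.23, so they are not read as Xrcc1 levels here. No member probe was saturated. None of the 13 probes tested was called in any comparison by limma over 30750 probes, beside 0.211% of probes for NNK against Untreated, 0.283% for SECY against Untreated, 1.44% for NNK+SECY against Untreated, 1.56% for NNK+SECY against NNK, 0.00651% for NNK+SECY against SECY and for the interaction, and 2.16% for the averaged diet.

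Of the wider repair machinery, 1 gene passed the threshold. Of 21 other base excision repair genes, such as further glycosylases, Polb and the ligases, 20 were measured above background and 0 passed the limma threshold in any of the 8 comparisons. Of 21 nucleotide excision repair genes, which take out bulky adducts, 20 were measured and 0 passed. Xpc, the damage sensor of that route, was at 0.11 ± 0.04 for the averaged diet (limma adjusted p = 0.168), and Gtf2h1, a subunit of the unwinding factor TFIIH, at -0.12 ± 0.07 (adjusted p = 0.511). For averaged NNK, Ercc4, a nuclease subunit, was at 0.10 ± 0.04 (adjusted p = 0.575) and Gtf2h3, also of TFIIH, at -0.07 ± 0.04 (adjusted p = 0.826). Of the base excision genes, Smug1, a uracil glycosylase, was at 0.12 ± 0.06 for averaged NNK (adjusted p = 0.803), with 0.26 ± 0.09 on the basal diet (adjusted p = 0.608), -0.02 ± 0.09 on selenocystine (adjusted p = 0.986) and an interaction of -0.28 ± 0.13 (adjusted p = 1). Its pool channel varied by 1.31 between groups. Parp2, a second break sensor, was at -0.08 ± 0.05 for averaged NNK (adjusted p = 0.85), and Aplf, which helps end joining, at 0.08 ± 0.04 for the averaged diet (adjusted p = 0.446). All 19 direct reversal and other mismatch repair genes were measured, and 1 passed: Rfc4, a subunit of the clamp loader that serves replication as well as repair. Mlh3, a relative of Pms2, was -0.11 ± 0.04 for the averaged diet (adjusted p = 0.152).

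Rfc4 was 0.95 ± 0.14 higher in NNK than in Untreated mice (limma adjusted p = 0.00775) and 0.71 ± 0.10 higher for NNK averaged over diet (adjusted p = 0.00391). Its ratio ran from -0.05 to 0.21 in Untreated, 0.73 to 1.29 in NNK, -0.05 to 0.33 in SECY and 0.13 to 0.87 in NNK+SECY mice. However, the pool channel, which held the same RNA on each array, averaged 8.74 in Untreated and 11.1 in NNK arrays (log2 Cy3) while Cy5 averaged 8.83 and 12.1. None of the 8 members varied as much: their Cy3 group means differed by at most 0.35, and 0 of 8 exceeded 0.5, a range that 7.39% of all genes tested exceeded. At that share a count of 0 among 8 genes is near what the rest of the array gave. Mgmt (0.35), Pms2 (0.27) and Msh6 (0.20) were above the median range of 0.18 over all genes tested, and the other members were below it. Markers of cycling cells, all 10 of them measured, had a mean ratio from -0.11 to 0.23 in Untreated, 0.01 to 0.16 in NNK, -0.10 to 0.12 in SECY and -0.12 to 0.07 in NNK+SECY mice. For NNK against Untreated 5 of the 10 were above 0 (median 0.014), and for averaged NNK 5 were (median -0.003). For NNK+SECY against NNK 2 of the 10 were above 0 (median -0.066). Of these 10, Birc5, which acts in cell division, passed in the directions of Rfc4: it was 0.97 ± 0.13 higher in NNK than in Untreated mice (limma adjusted p = 0.00396), 0.60 ± 0.09 higher for averaged NNK (adjusted p = 0.00905) and 0.62 lower in NNK+SECY than in NNK mice (adjusted p = 0.0189), and its pool channel also varied, by 1.31. Rfc4 itself was at -0.47 ± 0.14 for NNK+SECY against NNK (adjusted p = 0.159). The part of cycling cells in the Rfc4 difference was not tested.

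The members did not move as a block from mouse to mouse. Between members, the highest correlation of log2 ratios over the 16 arrays was that of Ogg1 and Pms2, at r = 0.61. Among 15073 named genes the closest profiles to Ogg1 were Cc2d1b (r = 0.87) and Khdc3 (0.83), and to Mgmt Foxd3 (0.80) and Kmt2d (0.79). For Mpg they were Mtcp1 (0.83) and Csta2 (0.82), for Apex1 Cadps (0.87) and Fbxo39 (0.84), and for Xrcc1 Dlk2 (0.92) and H4c4 (0.91). Parp1 was nearest to Nelfa (0.86) and Scamp4 (0.84), Pms2 to Frmd4a (0.87) and Pik3cg (0.84), and Msh6 to Arhgdig (0.85) and Hmces (0.83). These are the highest of a great many values over 16 arrays that share 1 reference, and are given as a description.

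Across arrays the median spot intensity was 71.2 to 105 in Cy5 and 67.5 to 93.4 in Cy3. The share of non-control spots well above background in Cy5 was 66.3% to 72.6% on the basal diet and 75.0% to 79.3% on selenocystine. The lung genes Sftpc, Scgb1a1 and Ager were well above background on 16 of 16 arrays. No 2 arrays were identical, and the labels call the 4 samples of a group biological replicates.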

How the data were processed

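Female A/J mouse lung RNA was measured on 16 Agilent 2-colour arrays. The deposited scanner files, which the file headers credit to version 8.1.1.1 of Feature Extraction, hold spot intensity values per dye and a log10 ratio. The deposited series table holds log2 ratios with column medians of 0, equal to the scanner log ratio to rounding. The deposited flag columns (other) mark control, outlier and saturated spots and spots well above background. Genome coordinates in the files lack a stated build and are used only for distances between probes.

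Intensities were background-corrected (normexp, offset 50) and loess-normalized within arrays in limma 3.58.1 (R 4.3.3, with data.table at version 1.17.8), with control and outlier spots at weight 0. Each gene was represented by its brightest probe and tested where Cy5 was well above background on all 4 arrays of at least 1 group. A model of 4 group means over 16 arrays (lmFit, eBayes) gave 8 contrasts, Benjamini-Hochberg adjusted over all genes. The interaction is the effect of NNK on selenocystine minus that on the basal diet, and averaged effects are means over both levels of the other treatment. The number of arrays limits the precision. Probe-pair correlations used 1e+05 permutations. Probe accessions were matched to RefSeq for current symbols, and promoter windows came from the RefSeq table. Scripts were tested on simulated data.

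The members, the lists of other repair genes and the markers were chosen with earlier results of these data known. All 8 members are named. From each list, genes called in any comparison and the 2 genes with the smallest p for the averaged effects were eligible for naming, with the 2 closest profiles of each member. Alternatives were the processed signals, the deposited table, median centring, Aquantile scaling, no dim-probe filter, the mean over probes, only the arrays compared, array weights, a slide block, a replicate block and leaving out each mouse. Deviations of same-numbered mice correlated at a mean r of 0.14 within slides and 0.13 across slides, against -0.05 for differently numbered mice. The same-numbered pairs ran from -0.12 to 0.46 within slides and from -0.10 to 0.50 across slides, and differently numbered pairs from -0.50 to 0.44. Mice numbered 1 were above 0 in every pair, from 0.21 to 0.50. Same-numbered mice did not deviate together on all pairs, so replicate numbers were not used to pair them in the main fit.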

Additional observations from a re-analysis of the deposited data

Results flagged for a closer look

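Of the 32 groups of 4 mice formed by the 8 members, 3 held a mouse set far apart from the other mice of its group by Dixon's criterion, which chance flags in about 1 in 20 groups. Mgmt in NNK+SECY replicate 2 had a log2 ratio of -0.0229, and the nearest other mouse had -0.111, so that this gap made up 0.895 of the group's range. Msh6 in NNK+SECY replicate 3 was at 0.00299 with the nearest mouse at 0.145, a gap of 0.834 of the range. Pms2 in SECY replicate 1 was at 0.149 with the nearest mouse at 0.000851, a gap of 0.892 of the range.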

How the results depend on the processing

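The count of 0 members called held under all 26 alternatives of each pairwise comparison and all 25 of each of the other 3, in 1640 member fits (limma). Not all of these were separate checks. Aquantile scaling left the log2 ratios as they were, and the processed signals and the deposited table hold the same ratios to rounding. Leaving out a mouse from outside a pairwise comparison could change the p-values but not the difference. The smallest adjusted p among the member fits was 0.0528, for Ogg1 in NNK+SECY against Untreated with array weights. Fitted over probes with those weights, 1 member probe was called, that of Ogg1 in the same comparison, at 0.20 ± 0.05 (adjusted p = 0.0487). The share of all probes called with those weights was not taken, so this call cannot be set against the rest of the array. Ogg1 for NNK averaged over diet ran from 0.11 to 0.16 with adjusted p from 0.103 to 0.552, and a replicate block gave 0.14 (adjusted p = 0.152). Its unadjusted p stayed under 0.05 in 25 of 25 there, in 23 of 26 for NNK against Untreated, in 25 of 26 for NNK+SECY against Untreated and in 21 of 26 for NNK+SECY against SECY. It was above 0.05 with median centring in these 3 pairs (0.162, 0.0786 and 0.0574). For NNK against Untreated it was so without Untreated replicate 2 (0.0657) or NNK replicate 1 (0.0682), and for NNK+SECY against SECY without NNK+SECY replicate 1 (0.0724) or replicate 2 (0.0503), with the processed signals (0.0504) and with the deposited table (0.0501). Of the 64 member differences, 26 kept one sign under every alternative. Rfc4 kept its sign and its call for NNK against Untreated in 26 of 26. Counts over all genes moved more: 18 to 131 for NNK against Untreated (68), 29 to 232 for SECY against Untreated (59), 164 to 497 for NNK+SECY against Untreated (339), 279 to 553 for NNK+SECY against NNK (371), 0 to 7 for NNK+SECY against SECY (2), 0 to 3 for the interaction (1), 407 to 1175 for the averaged diet (506) and 19 to 119 for averaged NNK (60). The number of arrays, 4 a group, limits the precision to the intervals given.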
